A study of Mus musculus with 2 samples.

Results

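The enzymes, transporters and coactivator of hepatic glucose production and glycogen storage were followed in liver cells through 9 genes, chosen by symbol from the 32285 genes of the matrix: Pck1, G6pc, Fbp1, Pcx, Gys2, Pygl, Slc2a2, Slc37a4 and Ppargc1a. All 9 were found, each as 1 row. Single-cell RNA sequencing had been performed on livers of 2 samples of male mice fed HFCFD, in which fat, cholesterol and fructose are raised (40% per the labels), for 2 weeks. The labels name 1 sample Cebp KO and 1 Cebp WT. Per the study's methods, CEBPA-deficient mice carried Cebpa fl/fl and a Cre driven by the albumin promoter, which acts in hepatocytes, on a background backcrossed to C57BL/6N, and controls carried Cebpa fl/fl. The study used a constitutive and a tamoxifen-inducible Cre. The labels do not name the line sequenced, and elsewhere in the study feeding of HFCFD for 2 weeks went with the constitutive line. Neither the age of these mice nor the number pooled per sample is stated in the sources used here. Both samples share 1 matrix in which each barcode ends in the suffix 1 or 2 (library 1 and library 2 below), and no label ties a suffix to a genotype. The libraries were therefore kept as unassigned, no knockout was compared with a wild type, and no test was run, since cells of 1 library are not replicates.

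The liver makes glucose in the fasted state and stores it as glycogen after a meal. Gluconeogenesis starts in the mitochondrion with pyruvate carboxylase (Pcx), goes on in the cytosol through phosphoenolpyruvate carboxykinase (Pck1) and fructose-1,6-bisphosphatase (Fbp1), and ends in the endoplasmic reticulum, where the transporter of Slc37a4 brings in glucose-6-phosphate and glucose-6-phosphatase (G6pc) frees glucose. Glycogen is built by the liver glycogen synthase (Gys2) and broken down by the liver phosphorylase (Pygl). Glucose crosses the hepatocyte's plasma membrane through GLUT2 (Slc2a2). PGC-1alpha (Ppargc1a) is a coactivator that raises transcription of gluconeogenic genes in fasting.

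In the GRCm38 reference annotation, Pck1 lies on the plus strand at chr2:173153048-173159273, G6pc on the plus strand at chr11:101367561-101377903, Fbp1 on the minus strand at chr13:62864753-62888282, Pcx on the plus strand at chr19:4510472-4621752 and Gys2 on the minus strand at chr6:142422613-142473109. Pygl lies on the minus strand at chr12:70190811-70231488, Slc2a2 on the plus strand at chr3:28697903-28731359, Slc37a4 on the plus strand at chr9:44396852-44402968 and Ppargc1a on the minus strand at chr5:51454250-51567726. All are protein coding, with up to 10 exons per transcript in Pck1, 5 in G6pc, 7 in Fbp1, 21 in Pcx, 17 in Gys2, 20 in Pygl, 11 in Slc2a2, 9 in Slc37a4 and 13 in Ppargc1a. Pck1, G6pc, Fbp1 and Gys2 overlap no other annotated gene. Pcx is overlapped on the other strand by Lrfn4, Pygl by F730035M05Rik and Slc2a2 by 1700112D23Rik. Mir7085 lies within Slc37a4 on the same strand. Gm42614, Gm42615 and Gm43605 overlap Ppargc1a on the same strand and Gm42613 on the other. Whether intronic or antisense reads were counted is not stated in the sources used here, so reads of overlapping genes cannot be told apart.

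The promoters of the genes for the first cytosolic and the last step of gluconeogenesis are shown because, of the genes with 1 window, only this pair held a motif that was searched for. Each window runs from 250 bases before to 50 after the RefSeq start on GRCm38.p6, at chr2:173152823-173153122 for Pck1 and chr11:101367466-101367765 for G6pc, both on the plus strand. Capitals mark TTACGTCA, a variant of the cAMP response element, in Pck1 and TATAAA, the TATA box, in G6pc.
Pck1: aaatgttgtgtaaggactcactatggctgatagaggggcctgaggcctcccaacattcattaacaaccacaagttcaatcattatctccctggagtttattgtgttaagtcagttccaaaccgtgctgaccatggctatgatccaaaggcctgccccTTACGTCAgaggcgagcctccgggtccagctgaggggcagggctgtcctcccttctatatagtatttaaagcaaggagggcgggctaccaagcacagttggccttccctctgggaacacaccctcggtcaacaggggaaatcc
G6pc: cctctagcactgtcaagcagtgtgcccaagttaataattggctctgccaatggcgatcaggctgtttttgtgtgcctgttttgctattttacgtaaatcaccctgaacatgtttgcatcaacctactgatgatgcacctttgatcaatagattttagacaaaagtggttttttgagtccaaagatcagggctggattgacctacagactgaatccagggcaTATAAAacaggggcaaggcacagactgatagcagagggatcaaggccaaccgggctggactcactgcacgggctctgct
The match in Pck1 began at position -93 and that in G6pc at position -29 from the start. TTACGTCA was held by 0.499% of the 32851 promoter windows of the same length and TATAAA by 13.6%. The only other match among the 11 windows found for 8 of the 9 genes was TATAAA in 1 of the 3 windows of Slc37a4, at position -32. The letters TGACGTCA (in 1.79% of all windows), TTGCNNAA for C/EBP (10.8%) and GTAAACA for forkhead factors (3.65%) were in none of the 11 on either strand, nor was the HNF1 palindrome (0.00913%). No promoter of Gys2 was matched.

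Libraries 1 and 2 held 17313 and 15003 barcodes with 60048646 and 52355243 unique molecular identifiers (UMIs, each marking 1 captured cDNA molecule). The filter of at least 500 UMIs, at least 200 genes and at most 25% mitochondrial UMIs kept 11617 and 6088 cells, of which 9311 and 3916 were in clusters called hepatocyte-like from their markers. Most of those were shallow. Hepatocyte-like cells of at least 5000 UMIs, called deep here, numbered 703 and 570, with medians of 20811 and 12414 UMIs, and came from different clusters in each library: 495 of the 703 were in 1 cluster that held 1 deep cell in library 2, and 345 of the 570 in another that held 9 in library 1. Of barcode sequences, 81 occurred in both libraries. In deep cells the targeted gene, Cebpa, was at 1.27 CPM (UMIs per 1000000) in library 1 and 109 CPM in library 2, from 19 and 908 UMIs. These values were not used to name the libraries.

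All 9 genes were higher in deep hepatocyte-like cells than in lymphocyte-like cells of the same library. B-like and T-like cells, 747 in library 1 and 704 in library 2, are not known to make glucose and gave the background level. Each of the 9 genes was at least 2 times that level in both libraries, where 18.3% and 18.9% of all genes tested passed the same limit. These genes are known for the hepatocyte and were picked as such, so the count is a check of the cells and not a finding. Intervals given with CPM are exact Poisson 95% intervals and cover counting error only.

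Among the gluconeogenic enzymes, Pck1 was at 1628 CPM (1607 to 1648) in library 1 and 1625 CPM (1598 to 1653) in library 2, against 256 and 217 CPM in lymphocyte-like cells. Fbp1 was at 1451 CPM (1432 to 1471) and 1514 CPM (1487 to 1540), against 346 and 300 CPM. Pcx was at 232 CPM (224 to 239) and 197 CPM (188 to 207), against 31.5 and 27.7 CPM. Each of these genes was thus several times above its own background in both libraries. G6pc was at 273 CPM (265 to 282) and 269 CPM (258 to 280), against 25.1 and 35.5 CPM, and its transport partner Slc37a4 was at 97.1 CPM (92.2 to 102) and 89.0 CPM (82.7 to 95.6), against 24.3 and 24.1 CPM.

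For glycogen, the phosphorylase gene Pygl was at 282 CPM (274 to 291) in library 1 and 296 CPM (284 to 308) in library 2, and the synthase gene Gys2 at 74.6 CPM (70.3 to 79.2) and 82.8 CPM (76.8 to 89.3). Lymphocyte-like cells had 63.5 and 55.0 CPM of Pygl and 11.6 and 7.49 CPM of Gys2. Slc2a2 was at 313 CPM (304 to 322) and 219 CPM (209 to 230), against 40.0 and 37.8 CPM. The coactivator gene Ppargc1a was at 19.97 CPM (17.8 to 22.4) and 29.6 CPM (26.0 to 33.5) in deep cells and at 1.93 and 3.26 CPM in lymphocyte-like cells, from 7 and 10 UMIs.

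The libraries were next set side by side. None of the 9 genes differed by at least 2 times between the libraries in deep cells, where 4.49% of the 6951 genes at 10 CPM or more in either library did, 2.16% being higher in library 1 and 2.33% higher in library 2. With at most 1.5 times between them for any of the 9, Pck1 and G6pc stood closest, at log2 ratios of library 2 to library 1 of -0.00 (-0.03 to 0.03) and -0.02 (-0.10 to 0.05). The greatest distances were those of Slc2a2, 1.43 times higher in library 1 (log2 -0.51, -0.59 to -0.44), and Ppargc1a, 1.48 times higher in library 2 (log2 0.57, 0.32 to 0.82). Slc2a2 ranked at the 7.37th percentile of all tested genes and Ppargc1a at the 93.9th. The median log2 ratio of the 9 was -0.00, and that of all tested genes 0.00.

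The Poisson intervals of the libraries did not overlap for Fbp1, Pcx, Slc2a2 and Ppargc1a and overlapped for the other 5. There is 1 library on each side, so genotype and preparation cannot be told apart, and the depth of the deep cells differed as well. Under a mitochondrial limit of 10%, with cells clustered anew, the count was no longer 0. G6pc (39.7 and 155 CPM), Slc2a2 (42.3 and 125 CPM), Slc37a4 (23.7 and 64.4 CPM) and Ppargc1a (5.92 and 25.3 CPM) were then at least 2 times higher in library 2, where 18.8% of all 7141 genes tested were. None of the 9 was higher in library 1, where 6.22% were. The log2 ratio of library 2 to library 1 went from -0.02 to 1.89 for G6pc and from 0.57 to 1.67 for Ppargc1a. Those of Slc2a2 and Slc37a4 turned from -0.51 to 1.49 and from -0.12 to 1.33. The new clustering left 147 and 184 deep hepatocyte-like cells, and its part and that of the limit were not told apart. In the clusters used elsewhere, deep cells below 5% numbered 177 and 134, and those at 5% to 10% 33 and 51. Their G6pc was at 123 and 145 CPM below 5% and 245.5 and 183 CPM at 5% to 10%. Slc2a2 was at 121 and 116, then 329 and 146 CPM, and Slc37a4 at 27.5 and 55.7, then 126.5 and 91.4 CPM. Ppargc1a was at 11.9 and 28.2, then 13.2 and 16.2 CPM. Cells of low mitochondrial share are described next.

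Within each library, deep hepatocyte-like cells differed among themselves in these genes along their mitochondrial share. In library 1, 150 deep cells had a share below 2%, 27 one of 2% to 5%, 33 one of 5% to 10% and the rest more. In library 2 the counts were 71, 63 and 51. The cells were split at 5%, a value chosen after seeing the data, with 177 of 703 and 134 of 570 below it. Cells below it were shallower, with medians of 6274 and 7271 UMIs against 27003 and 14778. Slc2a2, G6pc and Slc37a4 were lower in the cells below 5%, as was Pcx in library 2, and Fbp1 and Pygl were higher there, Pygl by about the ratio of the median gene.

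In library 1, G6pc was at 123 CPM (105 to 143) below 5% and at 288 CPM (279 to 297) at 5% or more. In library 2 there were 145 CPM (126 to 166) and 294 CPM (282 to 307). The intervals of the libraries overlapped on each side of the split. Below 5% they were apart once the noncoding-led cluster described below was left out, at 48.6 CPM (36.4 to 63.6) and 114 CPM (96.1 to 134). Slc2a2, the glucose transporter, was at 121 CPM (103 to 141) below and 332 CPM (323 to 342) above in library 1, and at 116 CPM (99.3 to 136) and 240 CPM (229 to 252) in library 2. The intervals of the libraries overlapped below 5% and did not above it, and below it they no longer overlapped without the noncoding-led cluster described below. Slc37a4 was at 27.5 CPM (19.4 to 38.0) below and 104 CPM (98.6 to 110) above in library 1 (log2 ratio 1.81). In library 2 it was at 55.7 CPM (44.1 to 69.5) and 95.8 CPM (88.6 to 103), a log2 ratio of 0.73.

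Fbp1 stood the other way. It was at 2365 CPM (2284 to 2449) below and 1361 CPM (1341 to 1381) above in library 1, and at 2122 CPM (2047 to 2199) and 1389 CPM (1361 to 1417) in library 2. Pygl was at 399 CPM (366 to 434) and 271 CPM (262 to 279) in library 1 and at 357 CPM (327 to 390) and 283 CPM (271 to 296) in library 2. Pygl lay near the median of all genes in both libraries, at percentiles 51.2 and 42.6. Pck1 was at 1838 CPM (1767 to 1912) below and 1607 CPM (1585 to 1628) above in library 1. That log2 ratio of -0.20 lay above the -0.59 of the median gene, at percentile 69.0. In library 2 its values were 1620 CPM (1554 to 1688) and 1626 CPM (1596 to 1656). Pcx was at 235 CPM (210 to 263) below and 231 CPM (223 to 239) above in library 1, and at 157 CPM (137 to 179) and 205 CPM (195 to 216) in library 2, where the intervals were apart. Gys2 had overlapping intervals on both sides in both libraries.

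By the limit of 2 times, 3 of the 9 genes (G6pc, Slc2a2, Slc37a4) were higher at 5% or more in library 1, where 6.29% of 7516 genes were, and 2 of 9 (G6pc, Slc2a2) in library 2, where 1.84% of 7059 were. None of the 9 was 2 times lower, where 25.9% and 7.52% of all genes were. Among all genes, the ratios of G6pc, Slc2a2 and Slc37a4 lay at percentiles 95.6, 97.2 and 99.0 in library 1 and 98.2, 98.4 and 94.4 in library 2, and those of Fbp1 at 37.8 and 25.3. The median log2 ratio over all nuclear genes was -0.59 and -0.23, and that of the 9 genes -0.03 and 0.02. These CPM are taken over all UMIs, mitochondrial ones included. Over nuclear-encoded UMIs alone the same 3 and 2 genes were higher, where 9.29% and 5.06% of all genes were. The median over all nuclear genes was then -0.31 and 0.02. With the split placed at 10% no gene of the 9 was 2 times higher in either library, where 2.54% and 1.65% of all genes were. Among deep cells below 10000 UMIs, Slc2a2 and Slc37a4 were in library 1, where 11.0% of all genes were, and G6pc in library 2, where 1.80% were. Without the cluster led by noncoding genes, described below, the counts were 4 in library 1, Ppargc1a being added, and 2 in library 2, where 20.2% and 10.8% of all genes were.

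In bins of the mitochondrial share, Fbp1 in library 2 went from 2218 CPM below 2% to 1830 CPM at 10% to 15% and 981 CPM at 20% to 25%, and G6pc from 154 to 235 and 351 CPM. In library 1, Fbp1 went from 2513 to 1634 and 1074 CPM over the same bins and G6pc from 87.3 to 273 and 287 CPM. The bin of 2% to 5% departed from this order, with 303 CPM of G6pc and 1616 CPM of Fbp1 in library 1, where its 27 cells had 37768 CPM of Malat1, and with 133 CPM of G6pc in library 2, within the interval of the bin below 2%. Above 10%, Fbp1 was lower in each further bin in both libraries, whereas Slc37a4 stayed between 101 and 107 CPM in library 1 and between 89.3 and 101 CPM in library 2. Restricted to deep cells below 10000 UMIs, the values below and above 5% were 142 and 247 CPM for G6pc, 132 and 358 CPM for Slc2a2 and 2412 and 1459 CPM for Fbp1 in library 1 (149 and 64 cells). In library 2 they were 146 and 327 CPM, 125 and 205 CPM and 2281 and 1392 CPM (82 and 148 cells). The signs were those of all deep cells in both libraries.

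**Figure D1:**
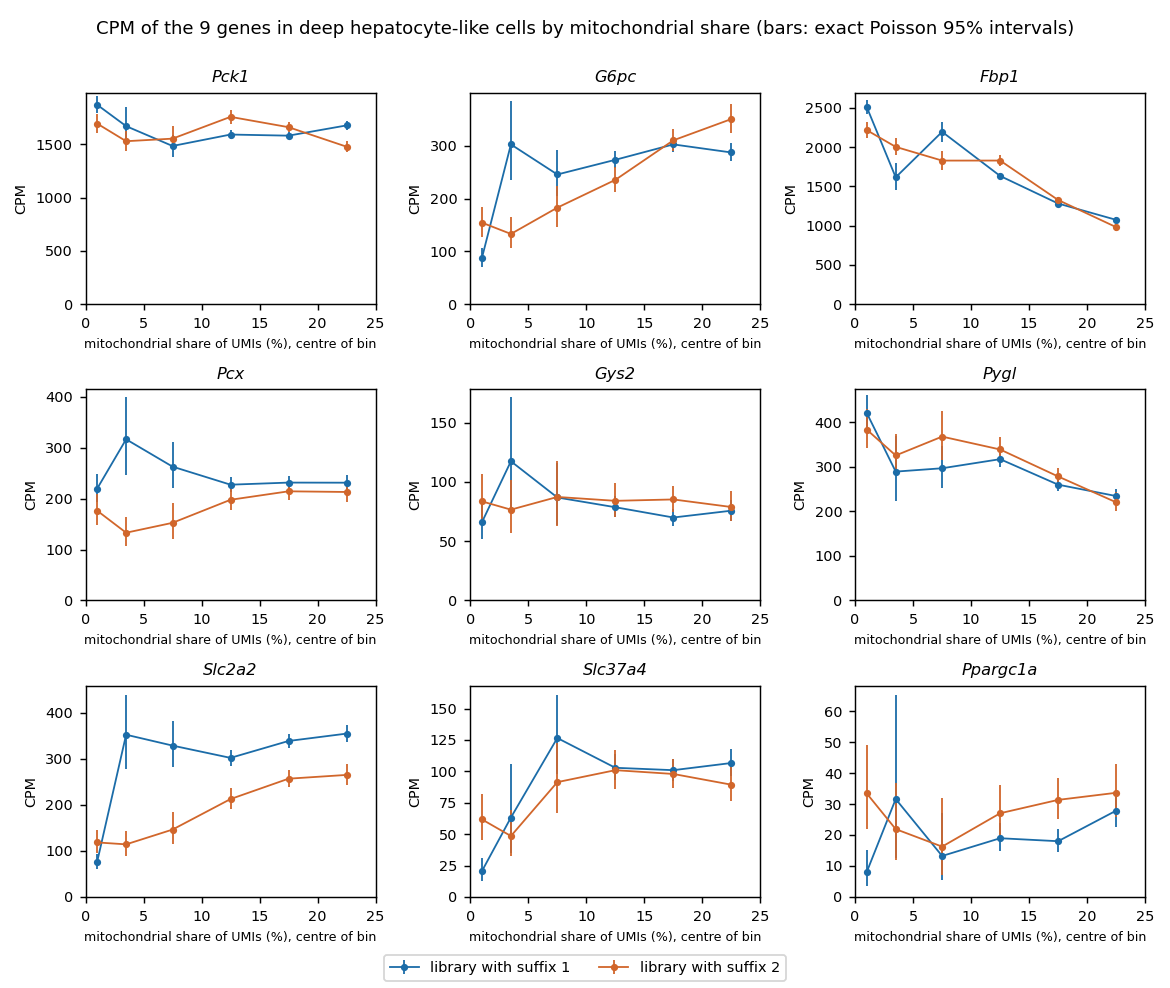
CPM of each gene in deep hepatocyte-like cells in 6 bins of the mitochondrial share (x axis, percent of UMIs, drawn at the bin centre), with 1 line per library and exact Poisson 95% intervals. Fbp1 and Pygl end lower than they start in both libraries, Slc2a2, G6pc and Slc37a4 end higher, and Pck1 stays between 1478 and 1871 CPM.

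Other lists were read along the same split. Of the 14 glycolysis genes tested, 0 were 2 times higher and 3 were 2 times lower above 5% in library 1 (Eno1 and Gapdh among them), a share below the 25.9% of all genes. Of 14 genes of substrate supply 3 were lower, and of 8 of glycogen synthesis 2. Of 6 genes listed under glycogen breakdown, 1 was lower (Pgm3, not itself a glycogen-degrading enzyme) and 1 higher. The higher was Gaa, the lysosomal glycogen-degrading enzyme, at 2.23 CPM (3 UMIs) below and 21.1 CPM above. Of 18 regulators, Igfbp1 was higher and Cebpb and Mlxipl were lower, against 6.29% and 25.9% of all genes. The median log2 ratios of the glycolysis, substrate supply and glycogen synthesis lists were -0.77, -0.56 and -0.19, those of glycogen breakdown and regulators -0.57 and -0.09, and that of all genes -0.59. In library 2 no gene of these 5 lists passed either limit, where 7.52% of all genes were lower. The 7 hepatocyte markers, all genes of secreted proteins, had a median of 0.83 in library 1, and 3 of them (Alb, Ahsg, Fgb) were 2 times higher. In library 2 their median was -0.23 and none passed. Alb, the albumin gene, was at 10706 CPM below and 39298 CPM above in library 1 and at 28071 and 42924 CPM in library 2. Malat1, a nuclear noncoding RNA, was at 17489 and 2680 CPM in library 1 and at 6533 and 2856 CPM in library 2. The part of nuclear RNA in the differences of the 9 genes was not tested. For depth, the values at 5000 to below 10000 UMIs are given above.

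A cluster of 50 and 58 deep cells, led by noncoding genes such as Egfros and Gm20528 and with the lowest hepatocyte score among the hepatocyte-like clusters, stood apart. It had 480 and 575 CPM of G6pc, 480 and 383 CPM of Pcx and 194 and 245 CPM of Gys2, the highest values of the hepatocyte-like clusters with at least 20 deep cells in a library. Its Fbp1 was at 763 and 630 CPM and its Pck1 at 975 and 1230 CPM, the lowest among them. Left out of the cells below 5%, it moved G6pc there from 123 to 48.6 CPM (36.4 to 63.6) in library 1 and from 145 to 114 CPM (96.1 to 134) in library 2. Slc2a2 moved from 121 to 55.1 CPM (42.0 to 70.9) and from 116 to 92.6 CPM (76.6 to 111). Without the cluster, library 2 had 1.68 times the CPM of library 1 for Slc2a2, 2.34 times for G6pc, 2.80 times for Slc37a4 and 2.83 times for Ppargc1a (7 and 23 UMIs). With the cluster kept these were 0.960, 1.18, 2.02 and 2.37 times. By the same limit with 3 UMIs added, 3 of 9 genes were higher in library 2 without the cluster and 1 of 9 with it, where 8.91% and 4.38% of all genes were. None of the 9 was higher in library 1, where 7.89% and 8.62% of all genes were.

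Depth was considered over all hepatocyte-like droplets. Deep cells were at least 2 times higher than shallow ones in 3 of 9 genes in library 1 (G6pc, Slc2a2, Ppargc1a), against 19.9% of all genes, and in 1 of 9 in library 2 (Ppargc1a), against 5.02%. None of the 9 was 2 times lower in either library, against 4.10% and 1.22%. With a mitochondrial limit of 10% and cells clustered anew, none was higher in either library (3.91% and 5.38% of all genes). Slc2a2 and Slc37a4 were then lower in library 1, where 5.73% of all genes were. Mitochondrial share changed with depth, from a median of 1.12% at 5000 to below 10000 UMIs to 17.6% in the next bin in library 1, and from 9.43% to 16.3% in library 2. From the bin from 500 to below 1000 UMIs to that of 20000 or more, G6pc went from 95.2 to 289 CPM in library 1 and from 138 to 291 CPM in library 2, Gys2 from 32.0 to 73.1 and from 27.4 to 77.0 CPM, and Ppargc1a from 5.33 to 21.5 and from 5.08 to 30.8 CPM. The course was not even. Slc2a2 went from 187 CPM in the shallowest bin of library 1 to 91.0 CPM at 2000 to below 5000 UMIs before reaching 329 CPM in the deepest. In library 2 it went from 148 to 111 CPM at 1000 to below 2000 UMIs and to 238 CPM. G6pc was at 68.1 CPM at 1000 to below 2000 UMIs in library 1, and Gys2 was highest at 5000 to below 10000 UMIs, at 96.3 and 96.2 CPM. Fbp1 was highest from 2000 to below 5000 UMIs, at 2228 and 1772 CPM, and stood at 1375 and 1428 CPM in the deepest bin.

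The shallowest droplets carried fewer UMIs of these genes than a lymphocyte-like cell. Droplets of 500 UMIs or more and below 1000 held 0.0778 and 0.101 UMIs of G6pc each, against 0.122 and 0.155 in lymphocyte-like cells, and 1.18 and 0.969 UMIs of Fbp1, against 1.68 and 1.31. In the deepest bin a cell held 9.27 and 7.80 UMIs of G6pc and 44.1 and 38.2 of Fbp1. Of the 9311 and 3916 hepatocyte-like droplets, 8608 and 3346 were shallow, with medians of 1143 and 1210 UMIs, so a level over the whole class rests on both kinds of droplet. Thinned to 1000 UMIs, shallow droplets had a G6pc UMI in 6.88% (6.22% to 7.59%) and 12.2% (10.8% to 13.7%), deep cells in 21.3% (18.4% to 24.6%) and 19.8% (16.6% to 23.3%), and lymphocyte-like cells in 3.09% (1.97% to 4.60%) and 3.74% (2.45% to 5.43%). The shares are given with Clopper-Pearson 95% intervals, and thinning left out 3214 and 1341 shallow droplets and 3 and 8 lymphocyte-like cells. The unthinned shares of these classes were 9.71% and 17.5%, 77.4% and 77.4%, and 11.2% and 12.8%.

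**Figure D2:**
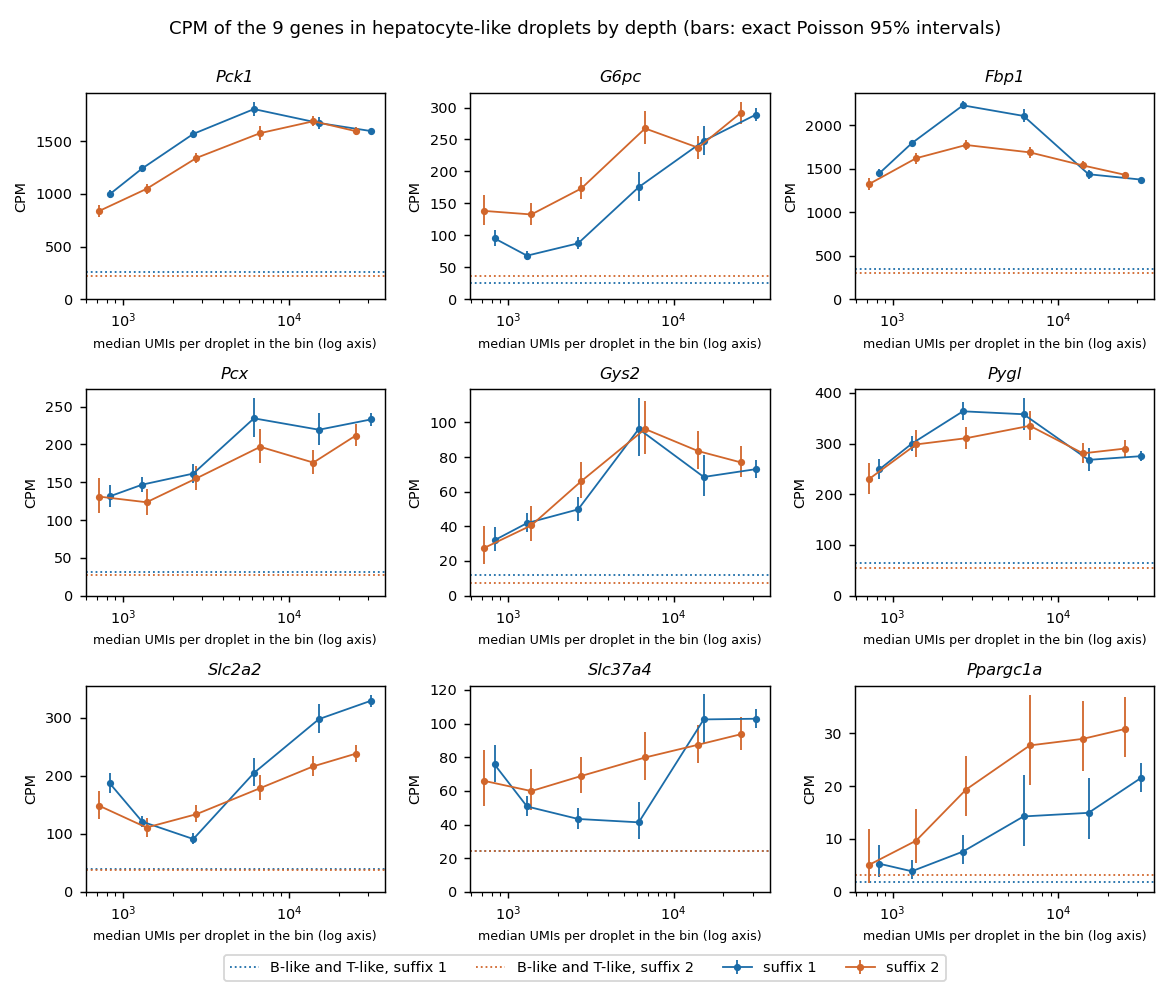
CPM of each gene in hepatocyte-like droplets against the median UMIs per droplet of 6 depth bins (log axis), with 1 line per library, exact Poisson 95% intervals, and dotted lines at the level in B-like and T-like cells of the same library. G6pc, Slc2a2, Gys2 and Ppargc1a end higher than they start, Slc2a2 after a dip, whereas Fbp1 and Pygl peak in the middle bins.

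Position in the lobule was read from zone markers. Periportal hepatocytes are known for gluconeogenesis and pericentral ones for glycolysis and glutamine synthesis. Deep cells were ordered by the level of pericentral markers (Cyp2e1, Oat, Cyp1a2, Slc1a2, Lhpp, Cyp2c29) minus that of periportal ones (Cyp2f2, Hal, Sds, Gls2, Hsd17b13, Ass1), after thinning those counts to 5000 UMIs per cell, and cut into 3 groups of equal size. Cyp2e1, used in the order, was 2.59 and 3.13 times higher in the pericentral group, and Glul, the glutamine synthetase gene that was not used, 2.95 and 7.54 times.

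Pck1 and Fbp1 were higher in the periportal group in both libraries, by modest ratios. Pck1 was at 1757 CPM periportal and 1445 CPM pericentral in library 1, 1.22 times, and at 1815 and 1438 CPM in library 2, 1.26 times. Fbp1 was at 1525 and 1257 CPM, 1.21 times, and at 1735 and 1297 CPM, 1.34 times. The ratios were 1.12 and 1.19 times for Pygl, 1.10 and 1.36 times for Slc37a4 and 1.19 and 1.04 times for Gys2. Ppargc1a had the largest ratio of the 9 in library 1, 1.67 times, from 24.2 CPM (20.3 to 28.6) and 14.4 CPM (11.0 to 18.6), and 1.03 times in library 2. G6pc (1.05 and 0.952 times), Pcx (1.00 and 0.909 times) and Slc2a2 (0.956 and 1.12 times) had ratios on or on both sides of 1. Alb was itself 1.33 and 1.46 times higher in the periportal group, and its part in these ratios was not tested. In cells of at least 5% mitochondrial share alone, periportal over pericentral was 1.17 and 1.29 times for Pck1 and 1.30 and 1.58 times for Fbp1. Glul was 1.56 and 12.8 times higher in the pericentral group of those cells. In the 70 and 57 deep cells with the most Glul, Pck1 was at 1551 and 1489 CPM and G6pc at 176 and 239 CPM. The 70 cells in library 1 had a median mitochondrial share of 1.56%, those in library 2 one of 15.1%.

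**Figure D3:**
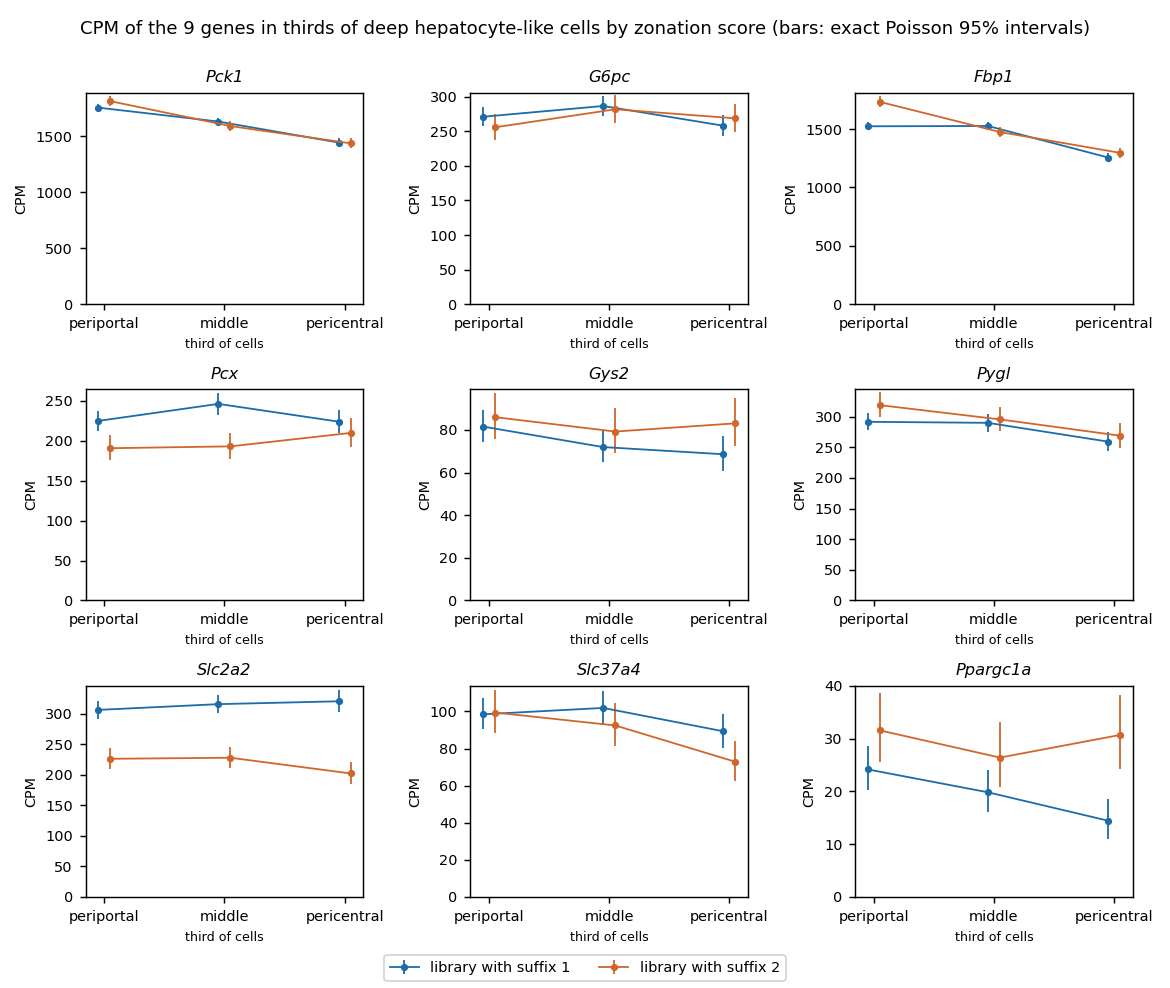
CPM of each gene in the periportal, middle and pericentral groups of deep hepatocyte-like cells, with 1 line per library and exact Poisson 95% intervals, y axes from 0. Pck1 and Fbp1 slope down toward the pericentral group in both libraries, and G6pc and Pcx are close to level.

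The share of cells with each gene was taken next. After thinning to 5000 UMIs, which every deep cell reached, Pck1 had a UMI in 98.2% (96.9% to 99.0%) and 99.5% (98.5% to 99.9%) of deep cells and Fbp1 in 99.2% (98.2% to 99.7%) and 98.4% (97.0% to 99.3%). Shares were 73.4% and 73.3% for Pygl, 68.3% and 56.8% for Slc2a2, 67.7% and 57.5% for Pcx, 56.5% and 59.1% for G6pc, 34.0% and 33.2% for Slc37a4, 30.3% and 31.1% for Gys2 and 8.54% and 13.2% for Ppargc1a. Most lymphocyte-like cells held too few UMIs for that depth. Thinned to 1000 UMIs, they had a Pck1 UMI in 23.2% and 17.0% and an Fbp1 UMI in 27.8% and 22.7%, against 78.7% and 75.6% of deep cells for Pck1. Unthinned, at medians of 4394 and 4017 UMIs, the lymphocyte-like shares were 55.7% and 45.7% for Pck1 and 65.9% and 56.1% for Fbp1. Before thinning, Ppargc1a had a UMI in 28.7% and 29.5% of cells. The ratio of variance to mean, 1 for counting error alone, was 3.45 and 2.98 for Fbp1, 2.22 and 1.71 for Pck1, 1.95 and 2.27 for G6pc and 1.07 and 1.04 for Slc37a4, at unequal means. Cell by cell, the middle 80% of deep cells ran from 0 to 554 CPM of G6pc with a median of 188 in library 1, and from 0 to 599 CPM with a median of 186 in library 2. For Pck1 the same range was 796 to 2610 CPM (median 1613) and 862 to 2452 CPM (median 1594), and 22.6% of deep cells in each library had no G6pc UMI.

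Correlations over 703 and 570 deep cells are given as a description, since all cells of a library share its depth range and free RNA. By the mean over the libraries, G6pc and Slc2a2 were the most alike pair of the 9 (Pearson r of log values 0.47 in library 1 and 0.34 in library 2), and Fbp1 and Slc2a2 the least (-0.41 and -0.28). In library 2 alone, Fbp1 and Pygl were above the first (0.39), and G6pc and Fbp1 below the last (-0.30). Pck1 and G6pc had r of -0.05 and -0.01. Among 1039 genes of at least 100 CPM in both libraries, the 3 most like G6pc were Fn1 (mean r 0.51), Apob (0.51) and Egfr (0.48), and those most like Slc2a2 were Apob (0.60), Fn1 (0.56) and Cp (0.53). Among the genes nearest to Fbp1 were Gapdh (0.70) and Ass1 (0.67), and among those nearest to Pygl were Gapdh (0.33) and Dbi (0.32). Uox (0.36) and Gpx1 (0.35) were near Pck1, and Apob (0.35), Selenop (0.35) and Fga (0.34) were nearest to Slc37a4. Gys2 (Dpyd, Malat1 and Zbtb20, each 0.34) and Pcx (Zbtb20 at 0.34, Neat1 and Malat1 at 0.33) shared neighbours that include nuclear noncoding RNAs. Ppargc1a had none above 0.26 (Man2a1, Malat1, Alcam).

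The order of 14 classes with at least 20 cells had deep hepatocyte-like cells first for Pck1, G6pc, Fbp1, Pcx, Gys2 and Slc37a4 in both libraries. The next class was mostly cholangiocyte-like, and its interval met that of deep cells for Gys2 in library 2 (46.3 CPM, 23.1 to 82.8, from 11 UMIs) and NK-like cells' did for Slc37a4 in library 2 (70.0 CPM, 28.2 to 144, from 7 UMIs). The other first and second classes of those 6 genes did not overlap, though for Slc37a4 in library 1 the upper end of cholangiocyte-like cells (92.1 CPM) lay just below the lower end of deep cells (92.2 CPM).

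Pygl was highest in neutrophil-like cells, at 778 CPM (691 to 873) in library 1 and 484 CPM (372 to 619) in library 2, from 289 UMIs in 133 cells and 63 in 54. Neutrophils are known to store glycogen. The intervals lay above those of deep hepatocyte-like cells in both libraries. Kupffer or macrophage-like cells were at 157 CPM (143 to 172) and 154 CPM (141 to 168) and the monocyte-like class stood at 150 CPM (110 to 200) and 122 CPM (91.7 to 159), with intervals above those of lymphocyte-like cells (55.6 to 72.3 and 47.0 to 64.0 CPM). Endothelial-like cells were at 76.8 CPM (58.0 to 99.7) and 90.3 CPM (70.4 to 114). Per 1000 Fbp1 UMIs there were 1497 and 724 UMIs of Pygl in neutrophil-like cells and 669 and 722 in Kupffer or macrophage-like cells, against 194 and 195 in deep hepatocyte-like cells and 174 and 179 in T-like cells. Pck1 and G6pc did not keep the hepatocyte ratio in T-like cells. These held 703 and 765 UMIs of Pck1 and 78.1 and 135 of G6pc per 1000 of Fbp1, against 1121 and 1074 and 188 and 178 in deep hepatocyte-like cells. Slc2a2 kept it in library 2 (143 against 145) and not in library 1 (141 against 216). Thinned to 1000 UMIs, 53.4% (44.5% to 62.2%) and 31.4% (19.1% to 45.9%) of neutrophil-like cells had a Pygl UMI, against 5.38% (3.87% to 7.25%) and 5.75% (4.14% to 7.74%) of lymphocyte-like cells. The unthinned shares were 79.7% and 57.4% at medians of 2492 and 1961 UMIs, and 21.4% and 18.0% at 4394 and 4017 UMIs.

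Cholangiocytes line the bile ducts. Cholangiocyte-like cells stood above deep hepatocyte-like cells for Ppargc1a in both libraries, at 47.0 CPM (36.4 to 59.8, 66 UMIs in 68 cells) and 75.7 CPM (44.9 to 120, 18 UMIs in 27 cells). For Slc2a2 they were at 371 CPM (340 to 404) in library 1, above deep cells, and at 269 CPM (207 to 344) in library 2, where the intervals overlapped. The class was mixed: Alb was at 23585 and 21059 CPM, and 56 of the 95 cells lacked an Epcam or a Krt19 or Krt7 UMI or had 2% or more of their UMIs in Alb. In the other 39 cells of both libraries (a selection made after seeing the data, median 8832 UMIs), Slc2a2 was at 227 CPM (184 to 278, 95 UMIs, in 27 cells) and Ppargc1a at 83.7 CPM (58.3 to 116, 35 UMIs, in 21 cells). By library, Slc2a2 was at 211 CPM (161 to 271) and 262 CPM (183 to 365), in library 1 below deep hepatocyte-like cells, while the remaining 43 cells of library 1 had 412 CPM (375 to 451). The lead of Slc2a2 in library 1 was thus not seen in the selected cells. Their selection also left out cells rich in Alb, and its part in that value was not tested. Of the remaining 43 cells, 27 had an Epcam UMI. There were 87.8 and 74.97 CPM of Ppargc1a in the selected cells. Of the other genes there, G6pc had 6 UMIs, Gys2 2, Slc37a4 9, Pcx 13 and Pygl 27, and Pck1 was at 175 CPM (137 to 220) and Fbp1 at 309 CPM (258 to 367). Krt19, a biliary keratin gene, was at 373 CPM and Alb at 10107 CPM in these cells.

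The 11 paralogs of these genes were read in the same classes. In deep cells 1 of the 11 reached 10 CPM, Ppargc1b, the sister coactivator, at 30.2 and 22.1 CPM, with 57.6 and 55.5 CPM in Kupffer or macrophage-like cells. The neuronal-type glucose transporter Slc2a3 was at 223 and 184 CPM in neutrophil-like cells and 53.0 and 51.4 CPM in T-like cells, against 0.603 and 0.481 CPM in deep cells. Pygb, the brain-type phosphorylase, was at 61.4 and 71.1 CPM in Kupffer or macrophage-like cells and 3.08 and 1.80 CPM in deep cells. Pck2, the mitochondrial carboxykinase, was at 20.5 and 33.4 CPM in B-like cells and 0.201 and 0.721 CPM in deep cells. G6pc2 had no UMI in any class listed.

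The wider pathway was set between the libraries by the same rule, which 2.16% of all genes passed toward library 1 and 2.33% toward library 2. Of 14 glycolysis genes tested (of 21), none was 2 times apart. Pklr, the liver pyruvate kinase, was at 166 CPM in library 1 and 107 CPM in library 2 (log2 -0.62, -0.74 to -0.52). Of 14 genes of substrate supply (of 16), 1 was higher in library 2: Got1, the cytosolic aspartate aminotransferase, at 54.1 and 365 CPM (log2 2.75, 2.64 to 2.87). The mitochondrial pyruvate carrier genes Mpc1 (260 and 418 CPM, log2 0.68) and Mpc2 (419 and 642 CPM, log2 0.62) came next. Of 8 genes listed under glycogen synthesis (of 13) and 6 listed under glycogen breakdown (of 8), none passed. Ugp2, which makes UDP-glucose, was at 277 and 483 CPM (log2 0.80, 0.74 to 0.86). Among 19 regulators tested of 24, Foxa2, a forkhead factor of hepatocytes, was higher in library 1 at 44.9 and 20.7 CPM (log2 -1.10, -1.37 to -0.87) and Cebpa was higher in library 2. Median log2 ratios were -0.03 for glycolysis, -0.00 for substrate supply, 0.08 for glycogen synthesis, 0.06 for glycogen breakdown and 0.00 for regulators. The receptors and factors that relay fasting and feeding, Gcgr (76.5 and 70.1 CPM), Insr (96.5 and 77.7 CPM), Foxo1 (61.4 and 61.3 CPM) and Hnf4a (211 and 207 CPM), were within 2 times.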

How the data were processed

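Libraries were made by the authors with the 10x Genomics 3' v3.1 chemistry, 1 lane per sample. The deposited matrix holds UMI counts, not normalized. For mm10, the submitters' processing notes name Cell Ranger 7.1.0, STAR 2.7.2a and bcl2fastq 2.20.0. The annotation and the cell calling are not stated in the sources used here.

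Clusters came from the log of 1 plus counts per 10000, over 2000 variable genes without the 9 genes and their pathways, 30 components, 15 neighbours and the Leiden method at resolution 1 (igraph 0.11.9, scikit-learn 1.9.0, scipy 1.17.1, numpy 2.4.6, Python 3.11.15). Of 37 clusters, 33 were named from 16 marker lists. Doublets were not removed. Cells had at least 500 UMIs, at least 200 genes and at most 25% of UMIs from 13 mitochondrial genes. UMIs were summed per class and library, and groups came from the labels, which leave both libraries unassigned. A ratio counted from 2 times, with 3 UMIs added to each sum, for genes of at least 10 CPM on either side. Genes named beyond the 9 are those farthest apart between the libraries in 6 pathway lists of 93 genes, the paralogs, the nearest genes per member (of 3 each), and the markers used. The members and lists were chosen with earlier results of these data known. Ratios and intervals were tested on simulated counts with known changes, drawn from a pooled profile without variation between cells. The deep cells do vary, so that test checks the computation and not the spread between cells. Positions are from GENCODE M21, in which 32158 of the 32285 gene IDs were found. Promoters are from RefSeq. Some genes that this rule names are not reported here.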

Additional observations from a re-analysis of the deposited data

Results flagged for a closer look

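Droplets with over 25% mitochondrial UMIs took no part in the comparisons and also held UMIs of the 9 genes. The 5675 such droplets in library 1 had 1227 CPM of the 9 genes summed, and the 8886 in library 2 had 909.8 CPM. G6pc was at 96.8 and 107 CPM there, Slc2a2 at 161 and 129 CPM, Slc37a4 at 50.2 and 49.3 CPM, Fbp1 at 390 and 276 CPM and Pck1 at 365 and 230 CPM. The series has no control sample for these droplets, and lymphocyte-like cells had 25.1 and 35.5 CPM of G6pc. By ratio, Fbp1 and Pck1 stood nearer to their lymphocyte-like levels given above, and Fbp1 in library 2 was below its own.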

How the results depend on the processing

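With 1 library per sample and suffixes tied to no sample, intervals cover counting error only, and nothing here separates genotype from preparation. No paired analysis was possible because there is 1 library per genotype and no test was run. All 9 genes stayed at least 2 times above the lymphocyte-like level under each alternative except the 10% mitochondrial limit in library 1, where 6 did. The number 2 times higher in library 2 was 4 under that limit and 0 under the other alternatives for all deep cells, and none was 2 times higher in library 1 under these. Among deep cells below 5% mitochondrial share alone, 1 was higher in library 2, and 3 without the noncoding-led cluster. Genes 2 times higher in deep than in shallow cells, 3 and 1 as reported, became 0 in either library under the 10% limit (3.91% and 5.38% of all genes), where 2 were lower in library 1 (5.73%). In library 1 they became 5 over nuclear UMIs (27.5%) or after subtracting the lymphocyte-like level (29.7%). In library 2 they became 4 at a 50% limit (30.1%), 3 with no filter (28.7%), 2 as a mean over cells (16.9%), and 0 with deep cells of 10000 UMIs (1.21%), a minimum of 1000 UMIs (2.54%) or, chosen after seeing the data, without the noncoding-led cluster (2.04%). For the 5% mitochondrial split, whose alternatives were also chosen after seeing the data, counts of 3 and 2 became 0 and 0 with the split at 10%, 2 and 1 in deep cells below 10000 UMIs, and 4 and 2 without the noncoding-led cluster. The cause was not tested. CPM of a gene in deep cells moved beyond its interval in 118 of 270 values. Under the 10% limit, where cells were also clustered anew, the log2 ratio of library 2 to library 1 moved. It went from -0.02 to 1.89 for G6pc, -0.51 to 1.49 for Slc2a2, -0.12 to 1.33 for Slc37a4 and 0.57 to 1.67 for Ppargc1a. Ppargc1a rests on 298 and 246 UMIs.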
